A study of Mus musculus with 4 samples.

Results

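Fibromodulin (Fmod) and opticin (Optc), genes of the small leucine-rich proteoglycan family, were followed in sorted meningeal lymphatic endothelial cells of aged mice. They are 2 of the 9114 genes in the deposited table and were chosen by their normalised counts, which stood higher in the mVEGF-C libraries, so their levels in these same libraries are given as a description, with no test. The 4 libraries came from male C57BL/6J mice aged 20 to 24 months, 4 weeks after 5 µL of virus was injected into the cisterna magna. The 2 mVEGF-C libraries came from mice given AAV1-CMV-mVEGF-C, which carries mouse VEGF-C, the growth factor of lymphatic vessels. The 2 eGFP libraries came from mice given AAV1-CMV-eGFP, which carries a fluorescent protein, so both groups share the viral serotype, the injection and the CMV promoter, which is active in many cell types and is not limited to lymphatic cells. Cells were sorted as live singlets without CD45 and with CD31 and podoplanin, and each library pooled the meninges of 10 mice, so differences between single animals cannot be seen. VEGF-C itself (Vegfc) was not analysed here, which leaves delivery unchecked.

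Small leucine-rich proteoglycans are secreted matrix proteins built around a stretch of leucine-rich repeats. Many bind collagen and shape how collagen fibrils form, and several bind growth factors of the TGF-beta family. Fibromodulin, a class II member that can carry keratan sulfate chains, binds type I collagen and steers fibril thickness and cross-linking by lysyl oxidase. Opticin, a class III member, is best known from the vitreous of the eye, where it binds collagen fibrils and counters the growth of new blood vessels. Both proteins carry sulfated tyrosines near the amino end.

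The 2 genes lie in 1 proteoglycan cluster on chromosome 1 (GENCODE vM21, assembly GRCm38, which is mm10). Optc spans 133897199 to 133907999 on the minus strand, Prelp, a class II member, spans 133910304 to 133921414 on the same strand, and Fmod spans 134037254 to 134048277 on the plus strand. The Optc and Prelp genes are 2304 bases apart, and 129 kb separate Optc from Fmod. Fmod and Optc, at the ends of the cluster, stood higher in mVEGF-C while Prelp, between them, stood lower. Whether promoter motifs bear on these levels was not tested. The promoter windows shown run from 250 bases before to 50 after the RefSeq start on GRCm38.p6. They are chr1:134037004-134037303 (plus strand) for Fmod, chr1:133907950-133908249 (minus strand) for Optc and chr1:133921352-133921651 (minus strand) for Prelp, and capitals mark matches to the motifs searched.
Fmod: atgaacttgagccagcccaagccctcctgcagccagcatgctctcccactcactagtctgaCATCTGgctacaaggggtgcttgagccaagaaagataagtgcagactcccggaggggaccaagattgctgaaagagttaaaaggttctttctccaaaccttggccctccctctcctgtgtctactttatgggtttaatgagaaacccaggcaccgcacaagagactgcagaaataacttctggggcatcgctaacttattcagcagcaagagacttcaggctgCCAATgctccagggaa
Optc: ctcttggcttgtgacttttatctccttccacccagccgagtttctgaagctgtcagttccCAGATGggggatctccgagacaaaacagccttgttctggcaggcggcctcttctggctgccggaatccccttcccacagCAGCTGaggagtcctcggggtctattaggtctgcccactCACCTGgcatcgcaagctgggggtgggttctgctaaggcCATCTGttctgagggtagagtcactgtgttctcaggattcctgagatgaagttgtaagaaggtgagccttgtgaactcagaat
Prelp: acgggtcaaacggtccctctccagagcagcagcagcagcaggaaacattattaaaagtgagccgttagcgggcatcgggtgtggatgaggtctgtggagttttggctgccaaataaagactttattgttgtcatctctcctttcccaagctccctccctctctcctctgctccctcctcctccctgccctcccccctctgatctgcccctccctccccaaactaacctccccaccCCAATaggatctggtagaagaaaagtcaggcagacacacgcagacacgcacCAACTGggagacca
The motifs, searched on both strands, were the TATA box TATAAA, the CCAAT box CCAAT, the GC box GGGCGG, the AP-1 site TGANTCA and the E-box CANNTG, and no match overlapped a match to another motif. The Optc window held 4 E-boxes, while the Fmod and Prelp windows held 1 each. At least 1 E-box was found in 72.3% of 32851 mouse windows of this length, and at least 4 in 6.49%. The Fmod window had a CCAAT match at bases 35 to 39 after the start and the Prelp window had one at bases -15 to -11, a match that 37.4% of all windows held. The TATA box, GC box and AP-1 letters, held by 13.6%, 35.7% and 7.81% of all windows, did not occur in these 3 windows.

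Fmod was an abundant transcript in the mVEGF-C libraries and stood lower, at unlike levels, in the 2 eGFP libraries. Its deposited value, a read count scaled for library size and here called a normalised count, was 5228 in eGFP 1, 965 in eGFP 2, 15213 in mVEGF-C 1 and 13846 in mVEGF-C 2. The mVEGF-C libraries lay close together, within a ratio of 1.10, while the eGFP libraries differed by a factor of 5.42. The groups did not overlap, and the lower mVEGF-C library was 2.65 times the higher eGFP library. Groups that did not overlap in this direction were seen for 19.4% of the 9063 genes tested, a share printed as background only, since the direction was used to choose the gene. The group values were 14530 ± 967 for mVEGF-C and 3096 ± 3014 for eGFP (mean ± SD, n = 2 each). On the log2(normalised count + 1) scale, where changes of low genes come out too small, the difference of mVEGF-C minus eGFP was 2.69.

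The size of the Fmod difference depended on which eGFP library served as the control. It was 1.47 on the log2 scale without eGFP 2 and 3.91 without eGFP 1, against 2.62 and 2.76 without either mVEGF-C library. The gap between the eGFP libraries, 2.44 on the log2 scale, was wider than that of 94.3% of the genes tested. The gap between the mVEGF-C libraries, 0.14, was wider than that of 7.12%.

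Optc was a rare transcript in the eGFP libraries and a low to moderate one after mVEGF-C delivery. Its normalised count was 11.6 in eGFP 1, 40.6 in eGFP 2, 248 in mVEGF-C 1 and 986 in mVEGF-C 2. These values rest on 13, 38, 232 and 1061 reads in that order, so no library was at 0 for the gene. The exact Poisson 95% interval of the normalised count was 6.20 to 19.9 in eGFP 1, 28.7 to 55.8 in eGFP 2, 217 to 282 in mVEGF-C 1 and 927 to 1047 in mVEGF-C 2, which covers counting error only, because amplified reads are not independent molecules. The groups did not overlap, with the same background of 19.4%, and the lower mVEGF-C library was 6.10 times the higher eGFP library. The spread within each group was wide, by a factor of 3.49 in eGFP and 3.98 in mVEGF-C. The group values were 617 ± 522 for mVEGF-C and 26.1 ± 20.5 for eGFP (mean ± SD, n = 2 each).

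The Optc difference of 4.43 on the log2 scale ranked 52 among the 9063 genes tested, and that of Fmod ranked 280. By level the order was the other way in both groups. Fmod was at rank 1685 by its eGFP mean and 198 by its mVEGF-C mean, and Optc at rank 8522 and 4911. Leaving out a library gave Optc differences from 3.44 (without mVEGF-C 2) to 5.43 (without mVEGF-C 1). The order of the libraries within the groups also differed between the genes. Fmod was higher in eGFP 1 than in eGFP 2, and Optc was higher in eGFP 2. Fmod was slightly higher in mVEGF-C 1 than in mVEGF-C 2, and Optc was higher in mVEGF-C 2. GENCODE annotates 2 transcripts of Fmod and 5 of Optc, and the table gives 1 value per gene, so isoforms were not separated.

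**Figure D1:**
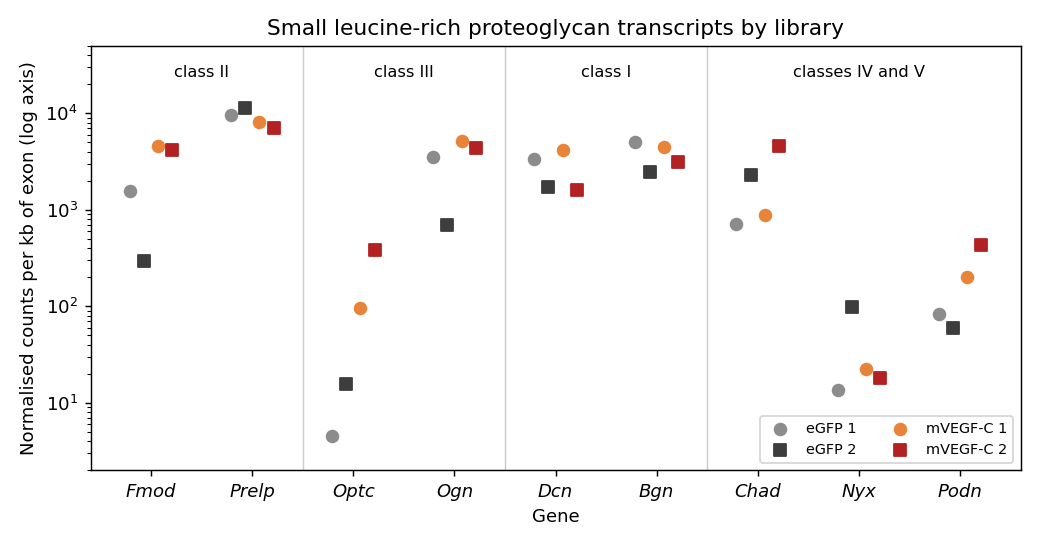
Normalised counts per kb of exon (log axis) of the 9 small leucine-rich proteoglycan genes analysed, by class, with 1 point per library (grey and black, eGFP; orange and red, mVEGF-C). Both mVEGF-C points lie above both eGFP points for Fmod, Optc, Ogn and Podn, both lie below for Prelp, and the points of the groups interleave for Dcn, Bgn, Chad and Nyx.

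The other members of the family were not uniformly higher or lower in the mVEGF-C libraries. Of 16 other genes on the family list, 7 were tested and the others, among them lumican, are not analysed here. By limma none of the 7 was called (Benjamini-Hochberg adjusted p under 0.05), against 2.14% of all genes (0.828% higher and 1.31% lower). An unadjusted p below 0.05 was seen for 1 of the 7, against 1068 of all 9063 genes tested. EdgeR and DESeq2 also called 0 of the 7, against 146 and 601 of all 9063 genes tested. With so small a background share, 0 calls among 7 genes is no result about the family. Ogn and Podn, 2 of the 7, stood higher in mVEGF-C with no overlap between groups, against 19.4% of all genes, and Prelp stood lower with no overlap, against 19.8%. Of the 7 differences 5 were above 0, with a median of 0.10, against 49.5% above 0 and a median of -0.02 over all genes tested. The median of the 7 was -0.17 without mVEGF-C 1, 0.35 without mVEGF-C 2, 0.59 without eGFP 1 and 0.44 without eGFP 2.

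Ogn, which encodes osteoglycin (mimecan), the class III relative of opticin, came nearest to the threshold. It had 8982 normalised counts in eGFP 1, 1784 in eGFP 2, 13305 in mVEGF-C 1 and 11226 in mVEGF-C 2. Like Fmod, it was lowest in eGFP 2 and its groups did not overlap. The difference stood at 1.61 ± 0.63 (log2, SE; limma, adjusted p = 0.187), with a 95% interval from 0.38 to 2.84 before any adjustment for the number of genes, and it was 0.44 without eGFP 2 and 2.78 without eGFP 1. Podn, which encodes the class V member podocan, had 359 and 252 normalised counts with eGFP and 869 and 1824 with mVEGF-C. Its groups did not overlap either, and its log2 difference of 2.06 carried a 95% interval from -0.18 to 4.31 (limma, adjusted p = 0.5).

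The best-known collagen-binding members gave small differences. Dcn, which encodes decorin, had 19852 and 9986 normalised counts with eGFP and 24366 and 9307 with mVEGF-C, with a log2 difference of 0.10 and a 95% interval from -0.81 to 1.01 (limma, adjusted p = 0.976). Bgn, which encodes biglycan, had 31086 and 14945 against 27396 and 19213, with a difference of 0.09 and an interval from -0.66 to 0.84 (limma, adjusted p = 0.972). For both genes the groups overlapped and replicate 1 of each group was the higher library. Chad, for the class IV member chondroadherin, differed by 0.65 (interval -1.03 to 2.34) and Nyx, for nyctalopin, by -0.86 (interval -3.36 to 1.65), with overlapping groups. Single libraries set the sign of Dcn, Bgn, Chad and Nyx. Dcn ran from -0.60 without mVEGF-C 1 to 0.79 without mVEGF-C 2, Bgn from -0.44 without eGFP 2 to 0.62 without eGFP 1, Chad from -0.52 without mVEGF-C 2 to 1.83 without mVEGF-C 1 and Nyx from -2.27 without eGFP 1 to 0.56 without eGFP 2. The intervals rest on a variance trend shared by all genes, so a gene's own spread does not enter them.

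Per kb of annotated exon, which allows a rough comparison of levels between genes, Prelp was the most abundant of the 9 family members in every library. For Optc the joined exons of all transcripts span 2575 bases and its longest coding transcript 1885, so its level per kb may be understated. Fmod was at rank 5 and 6 in eGFP 1 and eGFP 2 and at rank 3 and 4 in mVEGF-C 1 and mVEGF-C 2, and Optc was at rank 9 in both eGFP and 8 in both mVEGF-C libraries. Fmod stood at 1581 and 292 normalised counts per kb with eGFP and at 4602 and 4188 with mVEGF-C. It made up 6.61% and 1.54% of the summed level of the 9 genes in eGFP 1 and eGFP 2, and 16.6% and 16.2% in mVEGF-C 1 and mVEGF-C 2. The Optc share was 0.0189% and 0.0832% with eGFP and 0.347% and 1.48% with mVEGF-C. The share of Prelp went the other way, from 39.8% and 59.8% to 29.2% and 27.6%. The summed level was 23917 and 18953 per kb with eGFP and 27774 and 25812 with mVEGF-C. Shares add up to a whole, so a larger share of Fmod lowers those of the other genes.

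Prelp, the gene between Optc and Fmod, encodes a class II protein that links basement membranes to collagen. It had 34433 and 40951 normalised counts with eGFP and 29303 and 25792 with mVEGF-C. Its groups did not overlap, with the mVEGF-C libraries lower. The log2 difference was -0.45, interval -1.07 to 0.17 (limma, adjusted p = 0.661). Within 250 kb of the cluster GENCODE lists 16 protein-coding gene records, of which 5 could be analysed. The remaining neighbours were Atp2b4 (133699457 to 133801041), a plasma membrane calcium pump, at a log2 difference of 0.29, and Btg2 (134075170 to 134079120), an antiproliferative gene, at -1.04 (limma, adjusted p = 0.94 and 0.818). Of the 3 neighbours, Atp2b4 was slightly higher in both mVEGF-C libraries than in both eGFP libraries, while Prelp and Btg2 were lower in both. Over all genes tested, 19.4% were higher and 19.8% lower in this way, and none of the 3 was called, so this is no result about the locus. The span of an annotated antisense gene, Gm15851 (133906531 to 133914822, plus strand), overlaps the 5′ end of Optc by 1469 bases and Prelp by 4519 bases. These spans include introns. The exons of Gm15851 sum to 662 bases, and their overlap with exons of Optc was not measured. The strand setting of the authors' counting is not given in the sources used here. Whether any reads from Gm15851 entered the Optc count is therefore not known.

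**Figure D2:**
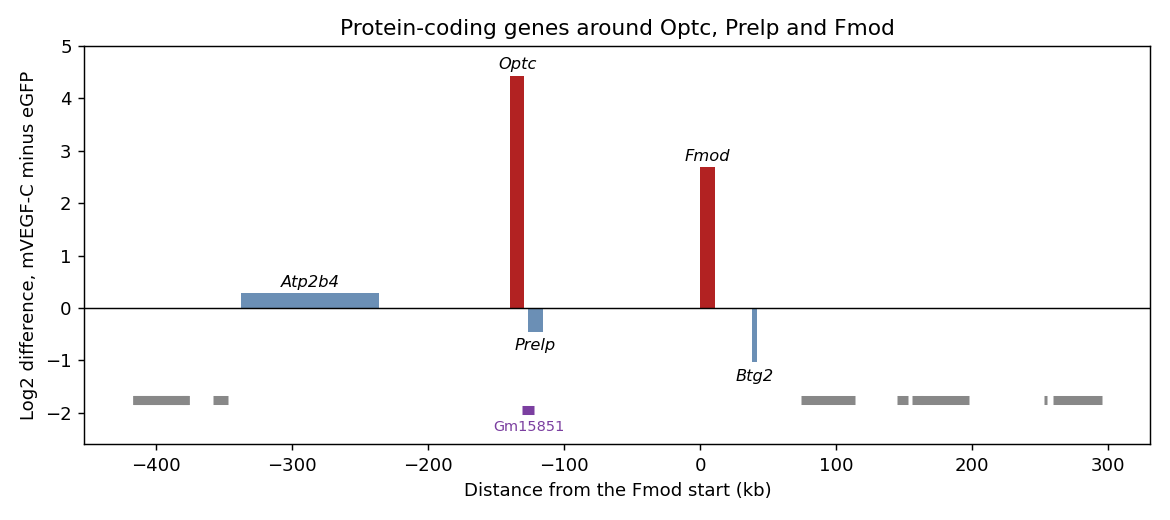
Log2 difference (mVEGF-C minus eGFP) of the 5 protein-coding genes analysed around the cluster, drawn at their distance from the Fmod start in kb, with bar width equal to gene length. Optc (4.43) and Fmod (2.69) are in red, Prelp, Atp2b4 and Btg2 in blue, grey bars at the bottom are protein-coding genes not analysed here, and the violet bar is the antisense gene Gm15851.

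Genes that build the matrix around these proteins were compared from lists of 130 genes in all, of which 71 were tested. By limma none of the 71 was called, against 2.14% of all genes. An unadjusted p below 0.05 was seen for 6 of the 71, against 1068 of all 9063 genes tested, so these counts single out no list. EdgeR called none and DESeq2 called 1, St3gal3, against 146 and 601 of all 9063 genes tested. Of the 71 differences 40 were above 0, with a median of 0.13. Some differences depended on 1 mVEGF-C library. Without mVEGF-C 1 the log2 differences of Mmp13, Spock2 and Tgfb2 were -5.28, -4.95 and -3.64. Without mVEGF-C 2 they were -1.65, -1.58 and 0.20. That of St3gal3 was 1.43 without mVEGF-C 1 and 5.36 without mVEGF-C 2.

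Keratan sulfate is the sugar chain fibromodulin can carry, and 6 of 12 genes of its synthesis were tested, 4 of them above 0 with a median of 0.27. The highest was St3gal3, a sialyltransferase that caps galactose-ended chains, at 6.27 and 3.21 normalised counts with eGFP and 225 and 13.9 with mVEGF-C. Its difference of 3.39 rests largely on mVEGF-C 1 and was not called by limma (adjusted p = 0.183). The lowest was B4galt1, a galactosyltransferase, at -0.66. Of the genes for the sulfate donor and tyrosine sulfation, Papss2, a synthase of the sulfate donor, stood at -1.89 and Tpst1, a tyrosine sulfotransferase, at -0.42.

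Among collagen partners, the 7 fibrillar collagens tested had a median difference of 0.69, with 5 above 0. The ends of the range were Col11a1 at 1.27 and Col5a2 at -0.90, both chains of minor collagens that help nucleate fibrils. Col1a1, the main chain of type I collagen, had 17449 and 3011 normalised counts with eGFP and 18981 and 11349 with mVEGF-C. As for Fmod and Ogn, eGFP 2 was its lowest library, but its groups overlapped. Of 16 genes of collagen processing and cross-linking 11 were above 0, with a median of 0.55. They ranged from Loxl2, a lysyl oxidase relative, at -1.70 to Pcolce2, an enhancer of procollagen cleavage, at 1.94. Lox itself, the enzyme that fibromodulin is known to bind, had 2078 and 514 normalised counts with eGFP and 2956 and 1433 with mVEGF-C, with overlapping groups.

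Of 16 TGF-beta genes 6 were above 0, with a median of -0.21. Tgfb3, a ligand, had the highest difference at 1.14, and Acvrl1, the receptor ALK1, the lowest at -2.50 (limma, adjusted p = 0.718 and 0.335). Complement genes, whose products include known partners of fibromodulin, had a median of 0.29 over 6 tested, from C2 at -2.08 to C3 at 1.16. Of 7 metalloproteinases and inhibitors 4 were below 0, from Mmp13, a collagenase known to cleave fibromodulin, at -3.46 to the aggrecanase Adamts5 at 0.21. Mmp13 had 708 and 1879 normalised counts with eGFP and 366 and 28.8 with mVEGF-C, so its groups did not overlap and mVEGF-C was lower (limma, adjusted p = 0.116). Other proteoglycans (9 tested) had a median of 0.07, with Spock2 lowest at -3.26 and Spock3 highest at 1.51. Of the genes of the tendon lineage, in which Fmod is a marker, Mkx, a tendon transcription factor, stood at 1.98 and Egr1 at 0.42.

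**Figure D3:**
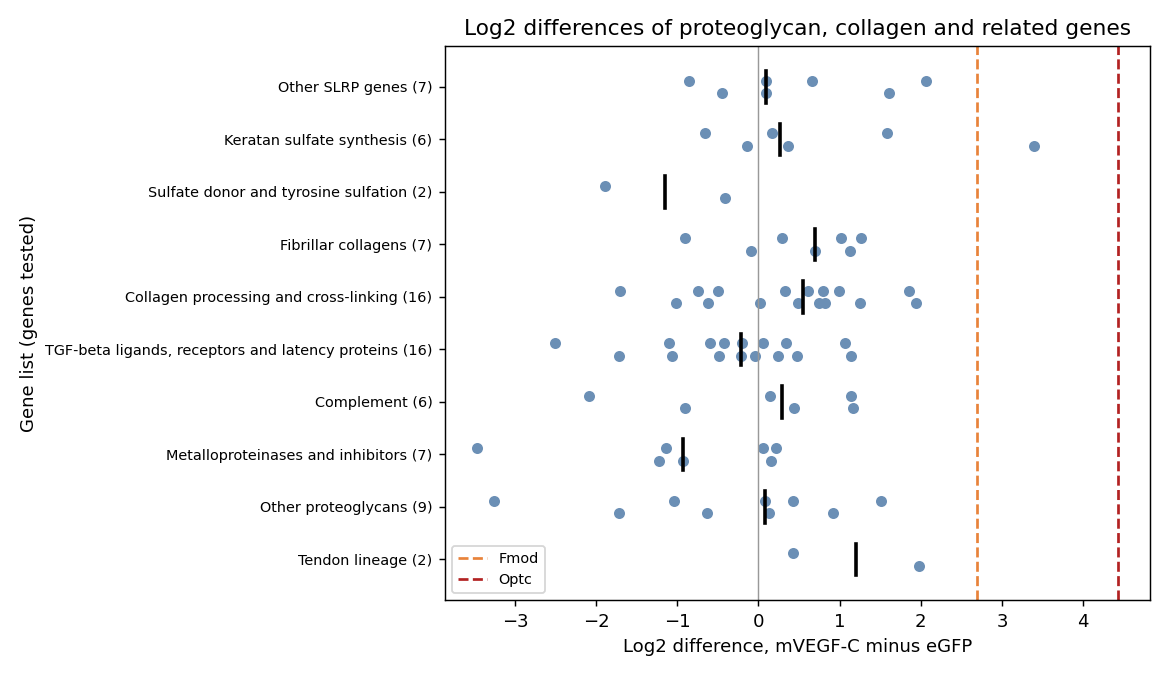
Log2 difference (mVEGF-C minus eGFP) of each gene tested in the other family members and 9 partner lists, with 1 point per gene, a black bar at each list's median and dashed lines at Fmod (2.69) and Optc (4.43). Sulfate donor and tyrosine sulfation genes lie below 0, tendon lineage genes above it and each other list on both sides, and St3gal3, at 3.39, is the 1 point to the right of the Fmod line.

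The libraries carried lymphatic markers at high levels, with all 10 of the list present and Flt4, Lyve1 and Prox1 at ranks 18, 20 and 31 of the 9063 genes by mean. Transcripts that mark meningeal fibroblasts, cells that make collagen and proteoglycans, were measured too, although a sort on CD31 is meant to leave such cells out. Of 16 fibroblast markers 9 could be analysed, none was at 0 in any library, and their summed level was 72129 and 37137 normalised counts with eGFP and 72490 and 53555 with mVEGF-C. The groups overlapped, with eGFP 2 lowest in the sum, as it was for Fmod and Ogn. The markers did not all share this order. Col1a1, Col1a2, Col3a1, Igf2 and Zic1 were lowest in eGFP 2. Foxc1 was lowest in eGFP 1, and Pdgfra, Mgp and Dpp4 were lowest in mVEGF-C 2. In bulk RNA, fewer cells of a type and less RNA per cell cannot be told apart.

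Set against these transcripts within each library, Fmod kept its order between the groups. Fmod and Optc were chosen for being higher, so the order of such ratios largely restates that choice and is a description only. As a percentage of the summed fibroblast markers it was 7.25% and 2.60% with eGFP and 21.0% and 25.9% with mVEGF-C. Relative to Dcn it was 26.3% and 9.67% against 62.4% and 149%. Relative to Col1a1 it was 30.0% and 32.1% against 80.1% and 122%, and relative to Ogn 58.2% and 54.1% against 114% and 123%. The eGFP libraries, which differed by a factor of 5.42 in Fmod itself, were close in Fmod relative to Col1a1 and to Ogn. They stayed apart relative to Dcn and the summed markers, and also relative to 3 further genes. With eGFP these were Col1a2 (26.2% and 9.52%), Bgn (16.8% and 6.46%) and Prelp (15.2% and 2.36%). The groups did not overlap in any of these ratios. On the log2 scale the difference between groups was 2.42 relative to the fibroblast markers, 1.67 relative to Col1a1 and 1.08 relative to Ogn. It was 2.78 relative to Col1a2, 2.60 relative to Bgn and 3.14 relative to Prelp.

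For Optc the ratios were less uniform. As a percentage of the summed fibroblast markers it was 0.0161% and 0.109% with eGFP and 0.342% and 1.84% with mVEGF-C, with no overlap. Relative to Ogn it was 0.130% and 2.28% against 1.86% and 8.78%, so here the groups overlapped. They overlapped relative to Col1a1 as well, at 0.0667% and 1.35% against 1.31% and 8.69%.

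**Figure D4:**
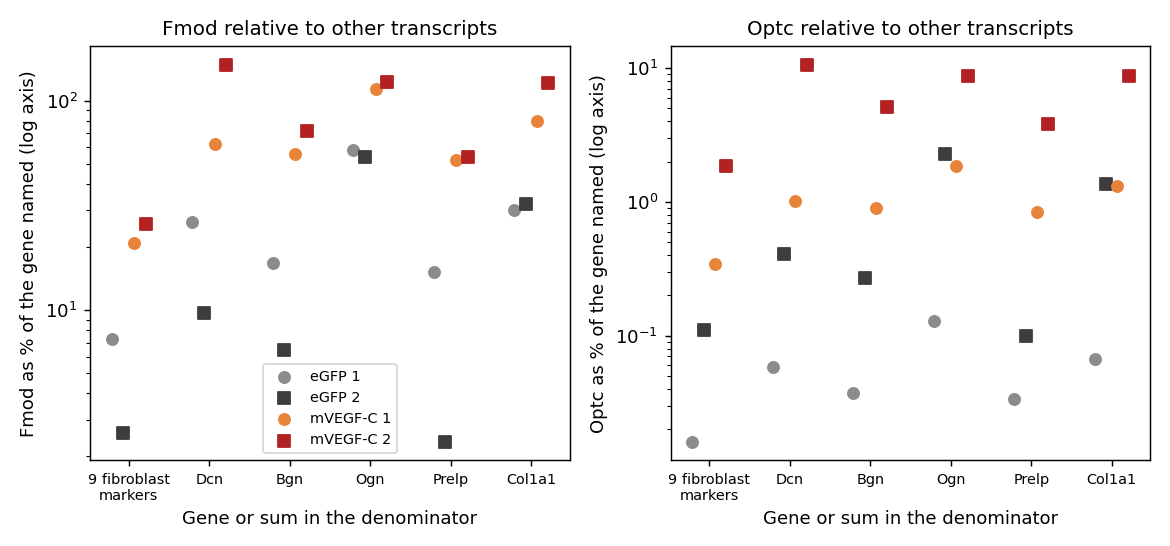
Fmod (left) and Optc (right) as a percentage of the summed fibroblast markers or of 1 other gene in the same library (log axes), with 1 point per library. For Fmod both mVEGF-C points lie above both eGFP points in each column, whereas for Optc the groups overlap relative to Ogn and Col1a1.

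Markers of other cells did not all move with these genes. Opticin is made by the ciliary epithelium of the eye, which shares genes with the choroid plexus, and 4 of 7 markers of these epithelia could be analysed. Their summed level was 19839 and 51461 with eGFP and 19637 and 20218 with mVEGF-C, so the groups overlapped, and no marker was at 0. Ttr, the transthyretin gene and a defining marker of choroid plexus, had 3947 and 19584 normalised counts with eGFP and 512 and 824 with mVEGF-C, the opposite order to Optc (log2 difference -3.76, limma, adjusted p = 0.00306). Aqp1 and Aqp4 had overlapping groups, with log2 differences of -0.23 and 0.22. Aqp1, at 15822 and 31762 with eGFP and 19054 and 19275 with mVEGF-C, was the larger part of the sum in every library. Folr1 was low throughout, at 13.4 and 13.9 with eGFP and 1.07 and 6.50 with mVEGF-C. Mural markers, 5 of 10 analysed and none at 0, summed to 28796 and 22693 with eGFP and to 18064 and 13248 with mVEGF-C, also opposite to Fmod and Optc. Of these 5, 4 had differences below 0, 2 of them with no overlap between groups, against 19.8% of all genes. Pdgfrb stood above 0, at 0.94, with overlapping groups. None of the 5 was called by limma. Of the 9 markers of bone and cartilage, where Fmod is also known, 2 could be analysed. Their sum was 6039 and 1524 against 7138 and 3320, with overlapping groups. Most of it was Alpl (5967 and 1051 against 6988 and 3026), so the sum is largely the level of 1 gene. The summed levels also overlapped for the pan-endothelial list (8 of 8 analysed, 97881 to 125685 with eGFP and 120129 to 131093 with mVEGF-C), the blood endothelial list (7 of 8, 22834 to 50350 and 29810 to 32364) and the Schwann and melanocyte list (3 of 8, 669 to 1281 and 276 to 1698). They overlapped for the lymphatic list (504284 to 581857 and 536782 to 662581) and for the leukocyte list (3 of 10, 27788 to 33279 and 23732 to 28840). Nearly all of the leukocyte sum was Mrc1 (27577 and 32880 with eGFP, 28512 and 23299 with mVEGF-C), so it gives no level of leukocytes. Cx3cr1 was at 196 and 387 with eGFP and at 328 and 426 with mVEGF-C. The T cell gene Cd3e was at 0 in mVEGF-C 1, and CD45 itself (Ptprc) was not analysed here. The part of other cell types in the Fmod and Optc levels was not tested.

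The genes whose pattern over the 4 libraries was most like that of each member were found by the distance between log2 values centred on each gene's mean, among 8257 other genes with a mean of at least 50. For Fmod these were Cat (distance 0.25), which encodes catalase, Gm26617, Tmem80, the homeobox repressor gene Tgif1 and the transcriptional coactivator gene Eya2 (0.35). Cat had 2539 and 530 normalised counts with eGFP and 9306 and 7990 with mVEGF-C. For Optc they were Rdm1 (0.21), the thioredoxin-domain gene Txndc9, Frmpd4, the thymidine phosphorylase gene Tymp and the stress-response factor gene Atf5 (0.86). Rdm1 had 22.4 and 68.4 normalised counts with eGFP and 375 and 1727 with mVEGF-C. Neither member was close to the other. Optc was at rank 4801 by distance from Fmod (3.73) and Fmod at rank 780 from Optc. Within the family Ogn was nearest to Fmod, at rank 94, and Podn was nearest to Optc, at rank 221. With 4 libraries such likeness is a description only.

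**Figure D5:**
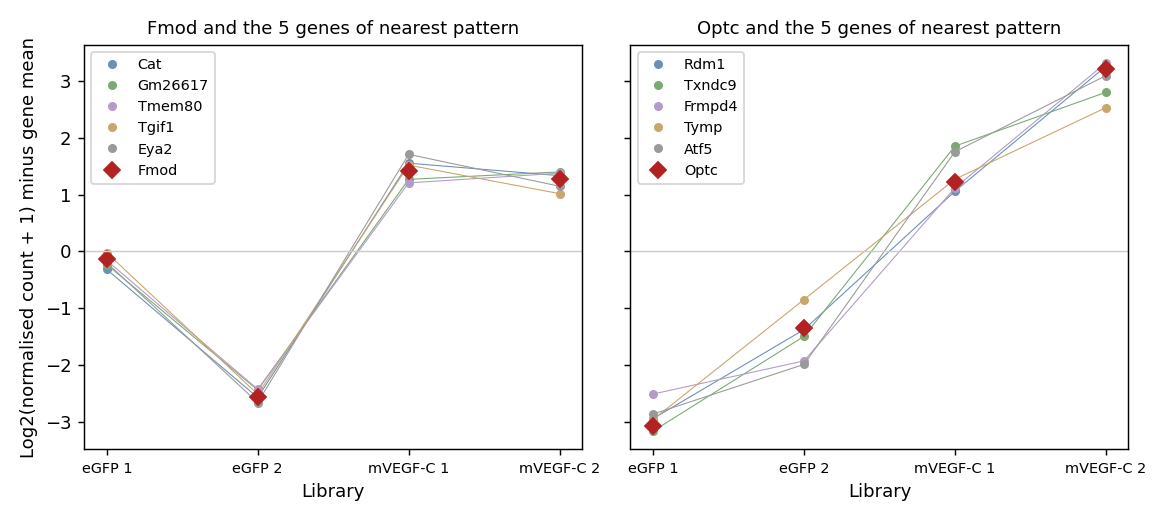
Log2(normalised count + 1) minus the gene's mean over the 4 libraries, for Fmod (left) and Optc (right, red diamonds) and the 5 genes of nearest pattern (coloured points, joined to follow a gene). Fmod and its nearest genes are lowest in eGFP 2, whereas Optc and its nearest genes are lowest in eGFP 1 and highest in mVEGF-C 2.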

How the data were processed

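The deposited table holds 9114 genes in 4 libraries. FastQC, Trimmomatic, Salmon and DESeq2 were used on mm10, per the submitters' processing notes, which name no versions. The authors deposited a signal, namely read counts divided by a size factor per library. Dividing each library by its lowest value above 0 gave whole numbers for 100% of values (within 0.001), and these recovered reads sum to 25610683 to 28632461 per library. The values show an upper limit on the spread between replicates, which differed between the groups. The SD of log2(reads + 1) within a group reached at most 3.00 in mVEGF-C and 2.00 in eGFP. These are gaps of up to 4.24 and 2.83 between the 2 libraries, so replicates of kept genes could still lie far apart. The spread between replicates is therefore understated, and p-values are too small by an unknown amount.

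Differences were fitted across all genes in R 4.3.3 with limma 3.58.1 (eBayes with trend, 2 residual degrees of freedom) on log2(normalised count + 1), for 9063 genes (mean normalised count of 10 or more), two-sided, with Benjamini-Hochberg adjustment. A gene was called at an adjusted p under 0.05. EdgeR 4.0.16 and DESeq2 1.42.0 were run on the recovered reads as alternatives. The limma script was tested on simulated data. Coordinates were found for 9036 rows (99.1%), and exon length is the union of annotated exons. Promoter sequences are from RefSeq (GRCm38.p6), where all of Fmod, Optc and Prelp were matched. From the lists of related genes, those called and those with the highest and lowest difference are named, with all family members, all analysed protein-coding genes within 250 kb and the 5 genes of nearest pattern. The result of 1 further list of related genes is not reported here. Lox, Col1a1, Ttr and Tgfb2 were named after their values were seen. So were the single markers of fibroblasts, choroid plexus, mural cells, leukocytes, and bone and cartilage. The members and lists were chosen with earlier results of these data known.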

Additional observations from a re-analysis of the deposited data

How the results depend on the processing

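Over 15 alternatives the log2 differences of Fmod (1.47 to 3.91) and Optc (3.44 to 5.43) stayed above 0. The genes were chosen for being higher, and with 2 libraries per group the change on leaving one out is set by the gap within the group, so these ranges are no sign of stability. None of the 7 other family members was called by limma, edgeR or DESeq2 in any of them, and their median ran from -0.17 to 0.59. The limma count of genes called over the whole table, 194 (75 higher, 119 lower), was less stable. It was 41 (15 and 26) with eBayes without trend and 601 (283 and 318) with DESeq2, and edgeR gave 79 lower. With single libraries left out, where the lone library of a group is assumed to vary like the others, it ran from 5 (5 higher and 0 lower, without eGFP 2) to 292 (104 and 188, without mVEGF-C 2), with 38 (19 and 19) without eGFP 1. The cause was not tested. Replicate numbers are shared by the groups, but the correlation of same-numbered libraries' deviations was 0.00013 across genes. With the replicate block 203 genes were called (74 higher and 129 lower), with Fmod at 2.69 and Optc at 4.43. The precision of Optc in the eGFP libraries is limited by 13 and 38 reads.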
